A study of Mus musculus with 6 samples.

Results

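Genes that mark radial glia, astrocytes and oligodendrocyte precursors were followed in motor neurons (MNs) that had been differentiated from mouse embryonic stem cells (mESCs) and collected by fluorescence-activated cell sorting (FACS). The 10 markers were chosen by name, and all 10 were found among the 34433 gene symbols of the deposited table. They were Fabp7, Slc1a3, Prom1, Slc1a2, Glul, Aldh1l1, S100b, Sparcl1, Pdgfra and Cspg4. RNA was sequenced from 3 samples of Hb9 control MNs (Hb9 MNs) and 3 samples of A2 SMA MNs (A2 MNs), all on the FVB/N background. Hb9 is labelled wildtype and A2 carries SMN2+/+;mSmn-/-, that is, the human SMN2 transgene without functional mouse Smn. According to the study's methods the Hb9 line carries the SMN2 transgene as well (SMN2+/+;mSmn+/+), and both lines carry an eGFP reporter under the Hb9 promoter. Embryoid bodies of both lines were treated for 5 days with 1 µM retinoic acid (RA) and 1 µM Smoothened agonist, which turns on the Sonic hedgehog pathway, and GFP-positive cells were sorted. Each genotype is represented by 1 mESC line, so genotype and line cannot be told apart.

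The deposited table gives 1 value per gene and genotype, as FPKM (sequenced fragments counted per length of transcript and scaled to library size), in which the 3 samples are already combined. No value of a single sample and no SD can therefore be given, and no test was run on these values. The table also holds the results of the authors' own test between the genotypes, which are not used here, so the differences below come without a replicate check. The study lists the reads of each library, but the table does not, and the number of reads behind a single combined value is unknown. The intervals given below are those of the table, which joins overlapping genes into 1 interval, so those of Prom1, Slc1a2, Glul, Aldh1l1, S100b and Sparcl1 are shared with other entries and may be wider than the gene. Where a pair of values follows a gene, the first is that of Hb9 MNs and the second that of A2 MNs. Smn1, the targeted gene, had 137 FPKM in Hb9 MNs and 5.26 FPKM in A2 MNs. Of 8 MN markers in the table, 7 reached 1 FPKM in a genotype, and 6 of them were at least 2-fold lower in A2 MNs. Of all 14926 entries past the same limit, 22.4% were at least 2-fold lower. Mnx1, which encodes Hb9, stood at 41.2 and 44.2 FPKM, whereas Isl1, a transcription factor of MN identity, stood at 108 and 5.95 FPKM. At the RNA level the cholinergic enzyme gene Chat was at 15.5 FPKM in Hb9 MNs and at 0.344 FPKM in A2 MNs. For protein, the study cites earlier work in which choline acetyltransferase, HB9 and neurofilament were unchanged by SMN deficiency. Chat was named after its values were seen.

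Radial glia are the elongated progenitors of the developing neural tube, which divide at the ventricle, guide migrating neurons and later give rise to astrocytes. Their markers overlap with those of neural progenitors on one side and of astrocytes on the other, so no single gene of the group defines a cell type. In the ventral spinal cord the domain that makes MNs afterwards makes oligodendrocyte precursors. Glia take up glutamate from the extracellular space through sodium-coupled transporters and turn it into glutamine, which neurons use again.

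The promoters of 9 of the markers were found in RefSeq, as windows of 300 bases (250 before and 50 after the annotated start, assembly GRCm38.p6), and Sparcl1 had no entry. The windows of 3 genes are shown, 5′ to 3′ on the strand of the gene: Fabp7 for the widest gap between the genotypes, Slc1a3 as a marker shared by radial glia and astrocytes, and Glul as the marker whose levels were nearly equal. They lie at chr10:57784673-57784972 (plus strand), chr15:8710758-8711057 (minus strand) and chr1:153899679-153899978 (plus strand). Capitals mark every match to 6 short motifs, searched on both strands.
Fabp7: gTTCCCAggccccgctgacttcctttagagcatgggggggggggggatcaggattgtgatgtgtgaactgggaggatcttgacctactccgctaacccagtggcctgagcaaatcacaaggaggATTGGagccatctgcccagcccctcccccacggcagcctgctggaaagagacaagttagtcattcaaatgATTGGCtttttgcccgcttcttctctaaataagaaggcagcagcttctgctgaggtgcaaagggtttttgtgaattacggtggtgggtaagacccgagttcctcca
Slc1a3: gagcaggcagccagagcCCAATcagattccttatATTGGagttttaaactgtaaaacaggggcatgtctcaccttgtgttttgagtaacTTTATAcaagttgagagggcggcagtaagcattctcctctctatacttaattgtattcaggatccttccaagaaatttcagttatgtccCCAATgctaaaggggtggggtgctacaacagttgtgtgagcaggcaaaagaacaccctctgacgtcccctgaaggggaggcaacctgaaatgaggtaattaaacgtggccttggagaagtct
Glul: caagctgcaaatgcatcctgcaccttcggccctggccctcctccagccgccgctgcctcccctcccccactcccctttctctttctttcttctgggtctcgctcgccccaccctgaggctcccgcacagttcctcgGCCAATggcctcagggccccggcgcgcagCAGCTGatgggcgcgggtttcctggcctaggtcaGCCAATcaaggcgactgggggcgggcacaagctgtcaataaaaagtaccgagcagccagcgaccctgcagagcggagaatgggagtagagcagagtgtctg

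The motifs were the RBPJ core TGGGAA, the NFI core TTGGC, the CCAAT box CCAAT, the E-box CAGCTG, the TATA box TATAAA and the SOX and TCF core ACAAAG. The reverse complement of the NFI core overlaps the CCAAT box wherever a window reads GCCAAT. The 9 genes had 10 windows. Prom1 had a window from 44094719 without a match and another from 44101687 with all of its matches. A gene was counted if any window of it held the motif, whereas the percentages are of single windows. The RBPJ core, named for the DNA-binding partner of Notch, was present in the windows of 4 of the 9 genes (Fabp7, Prom1, Aldh1l1 and S100b) and in 25.6% of all 32851 windows of the table. In Fabp7 it began at position -249 from the start. The NFI core, which is bound by nuclear factor I proteins, was found in 6 genes and in 46.7% of all windows, and the CCAAT box in 6 genes and in 37.4%. In the Glul window, NFI core and CCAAT box overlapped at both places where they occurred. The E-box was present in Slc1a2 and Glul (16.3% of all windows), the TATA box in Slc1a3 alone of the 9 genes (13.6%) and the SOX and TCF core in none of them (18.7%). A match is a run of letters in these windows and says nothing of binding. The RBPJ core was absent from the Glul window and also from those of Slc1a3 and Slc1a2. Whether any motif goes with the levels of the markers was not tested.

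Of the 10 markers, 8 reached 1 FPKM in at least 1 genotype. Among these 8, 6 were at least 2-fold lower in A2 MNs than in Hb9 MNs, none was at least 2-fold higher, and 2 lay within 2-fold. All 6 were more than 4-fold lower. The count is to be read against the whole table, in which 22.4% of 14926 entries past the same limit were at least 2-fold lower and 6.83% at least 2-fold higher. Over the 8 genes the median log2 ratio of A2 over Hb9 MNs was -2.40, where it was -0.29 over all entries (quartiles -0.89 and 0.19). Centring all ratios on that median left the same count of 6 markers but changed the split of the table, in which higher entries made up 38.8% of those past 2-fold in place of 23.4%. In sorted bulk cells, fewer cells of a type and less RNA per cell cannot be told apart.

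**Figure D1:**
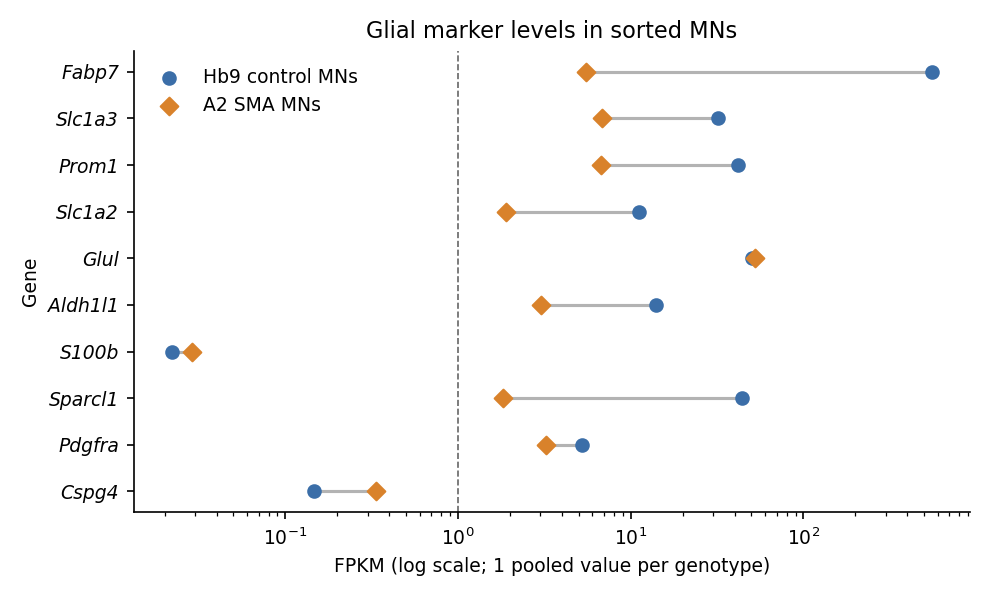
FPKM of the 10 markers on a log axis, with 1 pooled value per genotype (circles, Hb9 MNs; diamonds, A2 MNs) and a dashed line at 1 FPKM; no error can be drawn. The widest gap is that of Fabp7 (553 and 5.52 FPKM), the symbols of Glul nearly coincide (50.4 and 52.5 FPKM), and S100b and Cspg4 lie left of the line in both genotypes.

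Fabp7 encodes the brain lipid-binding protein, a carrier of fatty acids in radial glia, and is placed at 57504687 to 57508256 on chromosome 10 by the deposited table, which uses NCBI m37. It had 553 FPKM in Hb9 MNs and 5.52 FPKM in A2 MNs, a log2 ratio of -6.65 or a 100.3-fold lower level. In Hb9 MNs 52 of the 14926 entries were more abundant than Fabp7, and in A2 MNs 10023 were. Only 7 entries of the table had a lower log2 ratio. Its relatives were at or near the limit of 1 FPKM, where a gap like that of Fabp7 could not be seen: Fabp5, which carries fatty acids in many tissues and early neural cells, was at 1.51 and 1.40 FPKM, and Fabp3 and Fabp4 were under 1 FPKM in both genotypes. Fabp3, Fabp4 and Fabp5 were named after their values were seen.

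Slc1a3 encodes GLAST, the sodium-dependent glutamate transporter of radial glia and astrocytes (chromosome 15 from 8584124 to 8660764). Its level was 32.2 FPKM in Hb9 MNs and 6.86 FPKM in A2 MNs, with a log2 ratio of -2.23 (4.69-fold lower). Of all entries, 7.44% had a lower ratio than Slc1a3. Prom1 encodes prominin, a membrane glycoprotein of the protrusions of neuroepithelial and other stem cells (chromosome 5 from 44384864 to 44493752). Prom1 has 2 entries in the table with the same interval. The more abundant entry had 42.0 FPKM in Hb9 MNs and 6.74 FPKM in A2 MNs, with a log2 ratio of -2.64. It has the status FAIL, which Cuffdiff gives where its calculation for an entry did not complete. The other entry had 23.6 and 2.72 FPKM (log2 ratio -3.12) and the status OK, so the level of Prom1 differs between its entries while both were at least 2-fold lower.

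Among the markers of astrocytes, Slc1a2 encodes GLT1, the transporter that clears most glutamate in the mature forebrain (chromosome 2 from 102498389 to 102630941). It was present at 11.2 FPKM in Hb9 MNs and at 1.89 FPKM in A2 MNs, a log2 ratio of -2.56. Slc1a3 was 2.89 times as abundant as Slc1a2 in Hb9 MNs and 3.63 times in A2 MNs, so the order of these transporters was the same in both genotypes. Aldh1l1 encodes a folate enzyme, the dehydrogenase of formyltetrahydrofolate, that is used to label astrocytes (chromosome 6 from 90436421 to 90550197). Its 13.9 FPKM in Hb9 MNs stood against 3.03 FPKM in A2 MNs, a log2 ratio of -2.20. The ratios of Slc1a3, Slc1a2, Prom1 and Aldh1l1 spanned 0.44 on the log2 scale.

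Sparcl1 encodes hevin, a secreted matrix protein through which astrocytes promote the formation of synapses, and some neurons and blood vessels also make it (chromosome 5 from 104508130 to 104548706). It had 44.1 FPKM in Hb9 MNs and 1.83 FPKM in A2 MNs, a log2 ratio of -4.59 (24.1-fold lower). After Fabp7 this was the lowest ratio of the group, and 0.884% of all entries lay below it. Sparc, its closest relative and a matrix protein of many cell types, was at 688 and 340 FPKM, a log2 ratio of -1.02. Sparc was 15.6 times as abundant as Sparcl1 in Hb9 MNs and 186 times in A2 MNs.

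Glul encodes glutamine synthetase, which joins ammonia to glutamate in astrocytes and is also made by many other cells (an interval on chromosome 1 from 155696672 to 155764441 that 6 entries share). Alone among the 8 measured markers it was not lower in A2 MNs, with 50.4 FPKM in Hb9 MNs and 52.5 FPKM in A2 MNs. The log2 ratio was 0.06, and 0.35 relative to the median entry. Of all entries, 69.1% had a lower ratio than Glul.

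S100b encodes a calcium-binding protein of maturing astrocytes. It was at 0.0219 FPKM in Hb9 MNs and 0.0288 FPKM in A2 MNs, below the limit of 1 FPKM in both, so no ratio is given. The table gives it an interval of 91439 bp on chromosome 10 that it also gives to Dip2a and to Gm16240. Dip2a, named after its values were seen, was at 26.4 and 13.3 FPKM.

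The markers of oligodendrocyte precursors were low. Pdgfra encodes the receptor through which platelet-derived growth factor drives the division of these precursors, and mesenchymal cells and primitive endoderm carry it as well (chromosome 5 from 75548316 to 75594229). It was at 5.20 FPKM in Hb9 MNs and at 3.22 FPKM in A2 MNs, a log2 ratio of -0.69, or -0.40 relative to the median entry, and has the status FAIL. Its ligand gene Pdgfa was at 29.1 and 39.6 FPKM. Cspg4 encodes the proteoglycan NG2 of oligodendrocyte precursors and pericytes (chromosome 9 from 56712911 to 56747677). It was at 0.146 and 0.336 FPKM, below the limit in both genotypes. Neither gene of this pair was therefore at least 2-fold different at a level of 1 FPKM or more.

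**Figure D2:**
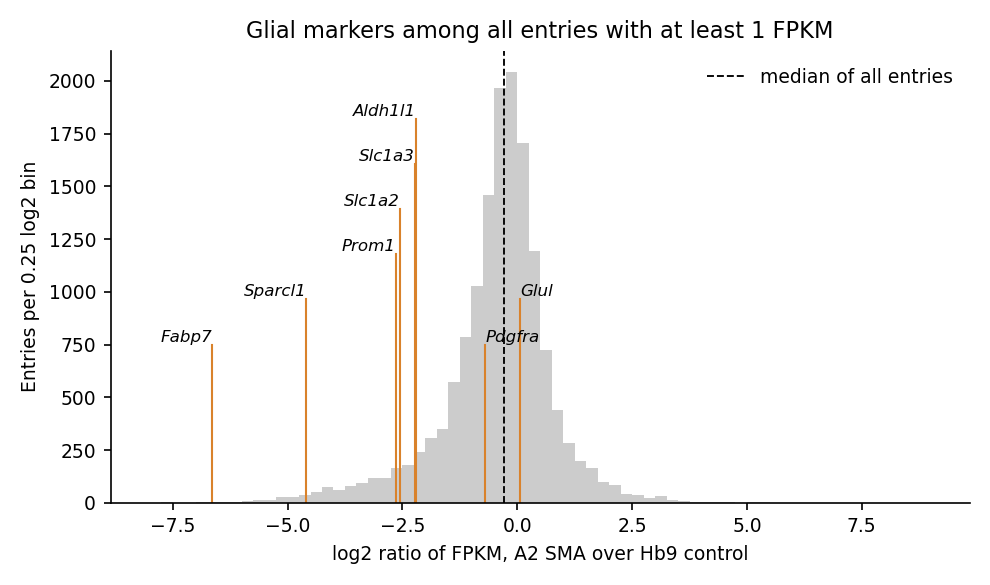
Histogram of the log2 ratio of FPKM in A2 over Hb9 MNs for 14926 entries that reached 1 FPKM in a genotype and were above 0 in both, in bins of 0.25; the dashed line is their median (-0.29) and each orange line is 1 of the 8 measured markers. Fabp7 (-6.65) and Sparcl1 (-4.59) lie in the far left tail, 4 markers lie close together between -2.64 and -2.20, and Pdgfra (-0.69) and Glul (0.06) lie in the bulk; the height of the orange lines carries no value.

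Summed over the 10 markers, the signal was 753 FPKM in Hb9 MNs and 81.9 FPKM in A2 MNs. Its make-up differed between the genotypes. Fabp7 held 73.5% of the sum in Hb9 MNs and 6.73% in A2 MNs, whereas Glul held 6.69% and 64.1%. Fabp7 was 10.99 times as abundant as Glul in Hb9 MNs and 0.105 times as abundant in A2 MNs. Without Fabp7 the sum was 199 FPKM in Hb9 MNs and 76.4 FPKM in A2 MNs, and without both genes it was 149 and 23.9 FPKM. In Hb9 MNs the order from the highest level was Fabp7, Glul, Sparcl1, Prom1, Slc1a3, Aldh1l1, Slc1a2, Pdgfra, Cspg4 and S100b. In A2 MNs it was Glul, Slc1a3, Prom1, Fabp7, Pdgfra, Aldh1l1, Slc1a2, Sparcl1, Cspg4 and S100b. Prom1 enters the sums and orders with its more abundant entry, which has the status FAIL. With its other entry (23.6 and 2.72 FPKM) it would stand below Slc1a3 in Hb9 MNs and below Fabp7, Pdgfra and Aldh1l1 in A2 MNs. With either entry Sparcl1 stood at place 3 in Hb9 MNs and at place 8 in A2 MNs. With 1 value per genotype, it cannot be said which neighbours in these orders differ beyond their spread.

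**Figure D3:**
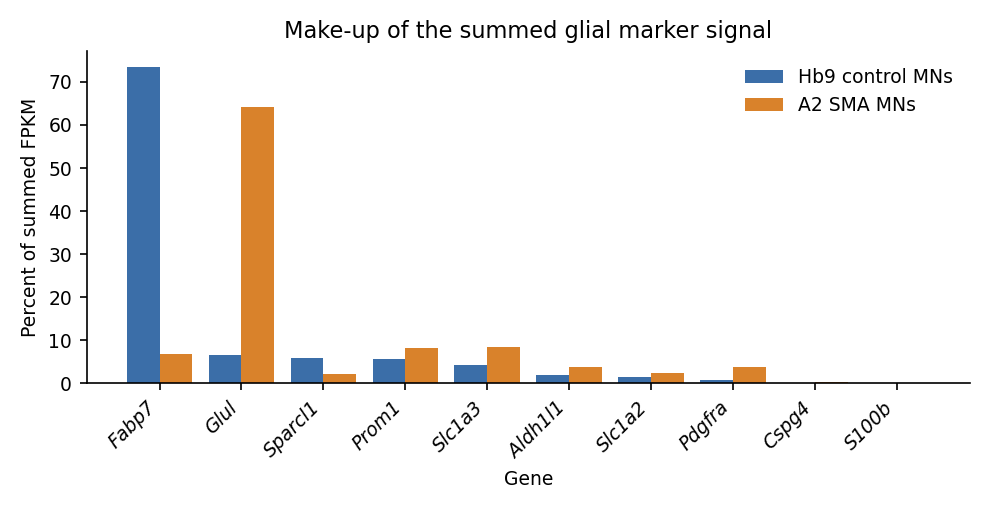
Share of each marker in the summed FPKM of the 10 markers, in percent, for Hb9 MNs (blue) and A2 MNs (orange). Fabp7 makes up 73.5% in Hb9 MNs and Glul makes up 64.1% in A2 MNs; Cspg4 and S100b are too low to be seen.

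Lists of other glial genes were read in the same way. Each of their counts stands beside the whole table, with 22.4% of entries at least 2-fold lower and 6.83% at least 2-fold higher. Of 21 further genes of radial glia, 20 reached 1 FPKM, 12 of these were at least 2-fold lower in A2 MNs and none was at least 2-fold higher, with a median log2 ratio of -2.06. The intermediate filament gene Vim had 1436 and 178 FPKM, and Msi1, an RNA-binding protein of neural progenitors, had 191 and 39.6 FPKM (its entry names Gm13832 as well). Sox2, which is shared with pluripotent cells, had 179 and 197 FPKM, and Dbi, the acyl-CoA binding protein, had 155 and 197 FPKM with the status FAIL. Radial glia genes therefore included several at nearly equal levels, as Glul was among the 10 markers.

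Of 23 further astrocyte genes, 18 reached the limit, of which 9 were at least 2-fold lower and 1 was at least 2-fold higher, with a median of -1.004. The gene that was higher was Apoe, the lipid carrier, at 293 FPKM in Hb9 MNs and 697 FPKM in A2 MNs (status FAIL). Fgfr3, a receptor of astrocyte precursors, stood at 166 and 9.35 FPKM (status FAIL), and Id3, an inhibitor of differentiation factors, at 124 and 50.5 FPKM. Cst3, a secreted protease inhibitor, was at 220 and 134 FPKM, a log2 ratio of -0.71. Gfap, the filament gene by which mature astrocytes are stained, was at 0.390 and 0.325 FPKM and Aqp4, their water channel, at 0.421 and 0.0366 FPKM. Both were named after their values were seen. The summed level of the astrocyte list was 1149 FPKM in Hb9 MNs and 1127 FPKM in A2 MNs, and it was 857 and 429.9 FPKM without Apoe, an alternative chosen after seeing the data.

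Of 22 further genes of the oligodendrocyte lineage, 14 reached the limit, of which 10 were at least 2-fold lower and 1 was at least 2-fold higher, with a median of -1.92. The most abundant were Nkx2-2 (52.5 and 1.33 FPKM), Nkx6-2 (40.8 and 2.39 FPKM), Vcan (40.1 and 18.0 FPKM, status FAIL) and Olig2 (32.1 and 0.704 FPKM). Nkx2-2, Nkx6-2 and Olig2 encode transcription factors of ventral neural progenitors too, and Vcan encodes a matrix proteoglycan. These transcription factors stood at higher levels than Pdgfra in Hb9 MNs and at lower levels than Pdgfra in A2 MNs. Opalin, a gene of mature oligodendrocytes that was named after its values were seen, was listed at 0 FPKM in both genotypes.

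Genes around the glutamate transporters included some that were lower and some that were higher. Of 19 genes of glutamate and glutamine handling, 18 reached the limit, of which 4 were at least 2-fold lower and 2 at least 2-fold higher, with a median of -0.30, where 22.4% of the table was lower and its median was -0.29. The 4 lower genes were Slc17a8, Gad2, Slc17a6 and Gad1, which encode vesicular glutamate transporters and enzymes of GABA synthesis in neurons and were named after their values were seen. They had 10.8, 2.46, 2.01 and 3.20 FPKM in Hb9 MNs, and in A2 MNs all but Gad1 (1.17 FPKM) were under 1 FPKM (Slc17a8 at 0.107 FPKM), so the size of their ratios is uncertain. Slc1a5, which carries neutral amino acids such as glutamine and belongs to the same family, was at 70.3 and 206 FPKM (status FAIL). It was 2.18 times as abundant as Slc1a3 in Hb9 MNs and 30.1 times in A2 MNs. Slc38a2, a glutamine carrier, was at 115 and 116 FPKM, and Got1, an aminotransferase of glutamate, at 124 and 214 FPKM (status FAIL).

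Markers of other cell types that the sorted fraction could hold were given the same treatment, and their part in the results above was not tested. The counts here and in the next paragraph stand beside 22.4% of all entries lower and 6.83% higher by at least 2-fold. All 8 genes of pluripotent cells were at least 2-fold higher in A2 MNs, and their sum was 278 FPKM in Hb9 MNs and 1821 FPKM in A2 MNs. Pou5f1, the core pluripotency factor, had 98.3 and 775 FPKM. All 8 pan-neuronal genes in the table were at least 2-fold lower, with a sum of 899 and 118 FPKM. The neuronal list had a lower median (-3.77) than the 8 measured markers (-2.40), and so did the 7 measured MN markers (-4.18).

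Of 10 genes of fibroblasts and mesenchyme, where Pdgfra is also active, 9 reached the limit, 5 were at least 2-fold lower and 1 was at least 2-fold higher, and the sum was 78.3 and 43.2 FPKM. Col1a2, a collagen chain, had 20.1 and 8.93 FPKM. Of 7 endoderm genes, 6 reached the limit and 2 were at least 2-fold lower, with a sum of 123 and 69.6 FPKM. None of the 7 genes of microglia and macrophages reached 1 FPKM, with sums of 1.53 and 1.88 FPKM. Cx3cr1 was listed at 0 FPKM in Hb9 MNs and P2ry12 in A2 MNs, and both were named for these values. Of 6 endothelial genes, 2 were at least 2-fold lower and 2 at least 2-fold higher, with a sum of 31.4 and 78.2 FPKM, most of it from Pecam1 (21.8 and 68.7 FPKM). Of 7 genes of neural crest and Schwann cells, 5 reached the limit, 2 were at least 2-fold lower and 1 was at least 2-fold higher. Ngfr, a neurotrophin receptor that MNs also carry, had 66.3 and 9.24 FPKM.

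**Figure D4:**
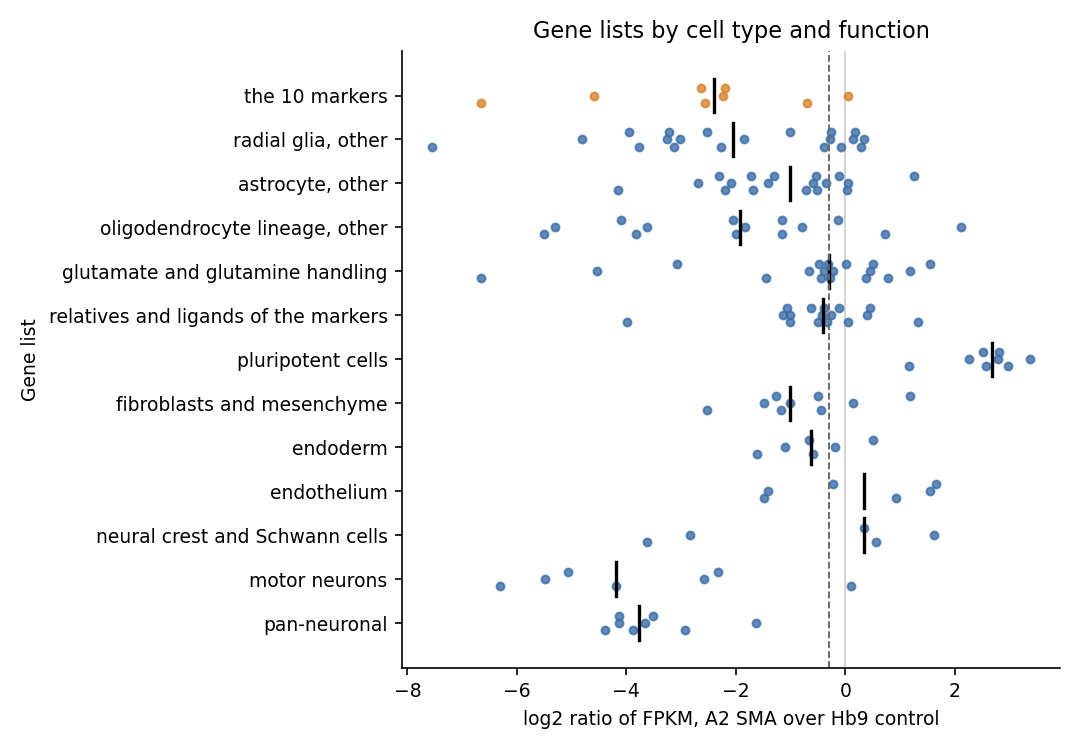
Log2 ratio of FPKM in A2 over Hb9 MNs for each measured gene (points) of the markers and of 12 other lists; black bars are medians of the lists, the dashed line is the median of all entries (-0.29), and points are spread vertically only to be seen. The medians of the 8 measured markers (-2.40), the further radial glia genes (-2.06) and the oligodendrocyte lineage genes (-1.92) lie between those of the neuronal lists and of the table, while single genes of these lists spread wider, and the median of the pluripotent list (2.69) lies right of that of the table; microglia and macrophage genes are not drawn because none reached 1 FPKM.

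The genes most like the most abundant markers were found by their distance in the plane of log2 FPKM in Hb9 control and in A2 MNs, which rests on 2 values per gene. The nearest to Fabp7 was Btbd17 (188 and 5.78 FPKM) at a distance of 1.56 log2 units, followed by Nefm (359 and 15.2 FPKM) and Rgs4 (218 and 10.4 FPKM, status FAIL). Sparcl1 had closer neighbours, with Chgb, a secretory granule protein (42.9 and 1.93 FPKM), at 0.089, D930028M14Rik (40.6 and 1.84 FPKM) at 0.12 and Lfng, a glycosyltransferase that modifies Notch (41.8 and 2.05 FPKM), at 0.19. Nearest to Glul were Kctd5, Tdp2 and Coq7, each within 0.012 log2 units.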

How the data were processed

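Total RNA was isolated from 6 samples (3 per genotype), and cDNA libraries made from it with the TruSeq RNA Sample Prep Kit were sequenced. Per the labels and the study's methods, the authors checked reads with FastQC 0.10.1, trimmed them with CutAdapt, aligned them with TopHat 2.04 to NCBI m37, built transcripts in Cufflinks and ran Cuffdiff on the genotypes. The deposited FPKM values are 1 per gene and genotype. The table also holds the test results of the authors' comparison (log2 fold change, statistic, p, q and a significance mark), which were not used. The status of an entry was used as a mark of quality; of the 14926 entries past the filter, 2086 (14.0%) have the status FAIL.

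Symbols were split at commas and, per symbol, the entry with the highest FPKM was taken. Log2 ratios were formed without a pseudocount for genes that reached 1 FPKM in a genotype and were above 0 in both, and a gene past 2-fold was counted as lower or higher. Each entry was counted once in the background. The steps were tested on simulated data. The library kit is not described as keeping strand, so overlapping genes on opposite strands may share reads. The table gives no read totals, and the depth behind a single value is unknown.

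The markers, lists and promoter motifs were chosen with earlier results of these data known. Named are all 10 markers, Smn1, up to 4 of the most abundant genes of each list, the 3 genes nearest to each of the 3 most abundant markers, and others where the text says so. Some genes of the lists are not reported here by name. Alternatives were pseudocounts, filters, summed entries, scalings, status, entries with several genes and fold limits. Python 3.11.15, numpy 2.4.6, pandas 2.3.3 and matplotlib 3.10.9 were used.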

Additional observations from a re-analysis of the deposited data

How the results depend on the processing

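The count of 6 markers at least 2-fold lower in A2 MNs was 7 with a limit of 1.5-fold, where Pdgfra was added, and 6 under the other 11 alternatives, the limit of 4-fold included. The count of markers at least 2-fold higher was 0 except without the filter on low values, where it was 1, Cspg4, at a log2 ratio of 1.20 between values under 1 FPKM. The median over the markers ranged from -2.56 with the status FAIL left out to -2.08 with a pseudocount of 1 FPKM. Of the single ratios, that of Sparcl1 moved by more than 1.5 times, to -4.00 with a pseudocount of 1 FPKM, and none changed its sign. Over all entries, 3343 were lower and 1020 higher past 2-fold. Without the filter these were 5051 and 1733, with a limit of 1.5-fold 5285 and 1900, and with a limit of 4-fold 1326 and 268. The higher entries were 656 with a pseudocount of 1 FPKM, 556 with a filter of 5 FPKM, 1558 centred on the median and 1551 scaled to the upper quartile (38.6% of those past 2-fold). No paired analysis was possible because the table holds 1 combined value per genotype, and for the same reason no replicate could be left out.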

Other observations

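Mobp, which encodes a protein of compact myelin and was picked after its values were seen, was the gene of the oligodendrocyte lineage that was at least 2-fold higher in A2 MNs, at 4.57 FPKM in Hb9 MNs and 19.7 FPKM in A2 MNs.

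The relatives and ligands of the markers were mostly closer to the table than the markers themselves. Of 21 such genes, 16 reached 1 FPKM, 5 of these were at least 2-fold lower and 1 was at least 2-fold higher. Over all entries 22.4% were lower and 6.83% higher. The median log2 ratio of the 16 genes was -0.41. S100a10 was at 111 FPKM in Hb9 MNs and 87.5 FPKM in A2 MNs. S100a6, a calcium-binding relative of S100b, was the gene that was higher, at 19.2 and 48.0 FPKM. Whether the lists differ from the markers was not tested.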
